A study of Physcomitrium patens with 6 samples.

Results

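The data described here are the mRNA changes of the second 30 minutes of abscisic acid (ABA) treatment in protonema of the moss Physcomitrium patens. They were read by comparing the 2 libraries at 60 minutes with the 2 libraries at 30 minutes, 4 of the 6 libraries in the series. The 2 libraries at 0 minutes served to place each gene's earlier course. Per the labels, tissue 10 days old was sonicated, grown for 3 days in shaken liquid PpNH4 medium, given ABA and collected after 30 or 60 minutes, while controls received methanol, the carrier, at a time the labels do not give. The ABA concentration is 10 µM in the series design and 10 mM in the treatment protocol, and the labels do not settle which is right. No strain, genotype or batch is named in the sources used here. There is no control for time at 30 or 60 minutes, so ABA and time after the addition cannot be told apart.

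ABA is a plant hormone of drought, salt and cold responses. In land plants it is bound by soluble receptors that then inhibit a class of protein phosphatases, which frees kinases that activate transcription factors at stress genes. In moss protonema, the filamentous juvenile tissue, ABA is known for raising tolerance of drying and freezing. The level of an mRNA at any time reflects both its synthesis and its decay, and counts of reads do not separate them.

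Gene counts summed to 16095741 and 17550096 in the 60 minute libraries, 17580410 and 12450250 in the 30 minute libraries, and 17822775 and 16407676 in the 0 minute libraries. Of 32926 gene IDs, 18949 had enough reads to be tested. The files give no gene names beside the IDs, and no ID was found among the 27567 genes that RefSeq lists for assembly ASM5946719v1. Genes are therefore given by ID, with no function, position or sequence, and near-identical, overlapping or antisense genes that share reads could not be set apart. For the same reason the labelled tissue could not be checked against marker genes. The replicates were further apart at 60 minutes than at 30 minutes. Among genes with a mean of at least 10 CPM, the median coefficient of variation between replicates was 9.91% at 60 minutes and 4.73% at 30 minutes. CPM here means gene counts scaled to a common library total after TMM, which centres the changes of most genes near 0. It is not corrected for gene length. Rankings by CPM gain or loss, CPM medians of gene groups and groups of genes by level can therefore also reflect gene length. In bulk tissue, fewer cells of a type and less RNA per cell cannot be told apart.

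The response was still under way after 30 minutes. Between 30 and 60 minutes 3298 genes rose (17.4% of those tested) and 3515 fell (18.5%), 36% in all. A call here is an adjusted p below 0.05 from the quasi-likelihood test of edgeR, with the Benjamini-Hochberg adjustment made over all tested genes. Among the called genes 818 rose and 1433 fell by 2-fold or more. At 8-fold or more there were 16 risen and 52 fallen genes, whereas the comparison of 30 with 0 minutes, with 36.4% called, held 576 and 72 of that size. The median level of the risen genes was 51.9 CPM at 60 minutes and 32.5 CPM at 30 minutes. Among the fallen genes it was 6.28 CPM at 60 minutes, against 12.002 CPM at 30 minutes. In 6812 of the 6813 called genes the 60 and 30 minute libraries did not overlap, as in 68% of all tested genes. Over all tested genes the median was 13.9 CPM at 60 minutes and 14.6 CPM at 30 minutes.

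The size of these lists depended on single libraries and on scaling. Without replicate 1 at 30 minutes 1638 genes rose and 1966 fell, and without replicate 2 at 30 minutes 1755 rose and 2377 fell. The numbers at 2-fold or more ran from 759 to 849 risen and from 1189 to 1679 fallen genes when each of the 6 libraries was left out in turn, but total counts alone gave 435 and 2646 and a filter of 1 CPM in every library gave 477 and 994. Of the calls, 48.4% were rises under TMM, 35.9% under upper-quartile factors, 16.1% under total counts alone and 52.2% under DESeq2's size factors in edgeR (3604 risen and 3299 fallen genes). DESeq2's own test called 2950 risen and 2483 fallen genes, so which direction holds more genes depends on the method. The 4 scalings put the median change of tested genes, on the log2 scale, at 0.01, -0.09, -0.31 and 0.04, and each change below is relative to TMM. At the threshold, the 50 genes just inside had a median absolute log2 fold change of 0.44 and the 50 just outside also 0.44, so a gene without a call is not shown to have held its level.

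Over the whole hour 57.9% of tested genes were called, 28.4% higher and 29.5% lower at 60 than at 0 minutes. On the log2 scale, genes that went up made most of their change early, and genes that went down made somewhat more of it late. The same split in CPM was not computed and can differ. Of the 2469 genes called higher at 60 than at 0 minutes by 2-fold or more, the median gene made 28.7% of its log2 change after 30 minutes. Of the 2884 called lower by as much, the median gene made 58.3% of its log2 change after 30 minutes. More than 50% of the change came after 30 minutes in 20.6% of the risen genes and in 61.1% of the fallen genes. The medians stayed within 17.4% to 30.9% for risen genes and 51.6% to 62.0% for fallen genes under every scaling, filter and left-out library tried. These genes were chosen on the 60 minute libraries that also enter the later change, so the values are a description and the difference was not tested.

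Each gene was placed in a behaviour group by its calls in both intervals. It went on if it was called in the same direction in both, started if it was called only after 30 minutes, stopped if it was called only before, and reversed if the calls were opposite. Both comparisons use the 30 minute libraries, so an error in those libraries pushes a gene towards opposite calls. A call in one interval and none in the other does not show that the intervals differ. The pace contrast tests this directly, as the log2 change after 30 minutes minus the log2 change before. It was called for 3644 genes (19.2% of those tested), positive for 937 (4.94%) and negative for 2707 (14.3%). Positive calls were 25.7% of these under TMM, 40.7% under upper-quartile factors and 13.0% under total counts alone. The number called was 1616 or 1874 without replicate 1 or 2 at 30 minutes, 2317 without replicate 2 at 0 minutes and 5502 without replicate 1 at 60 minutes.

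**Figure D1:**
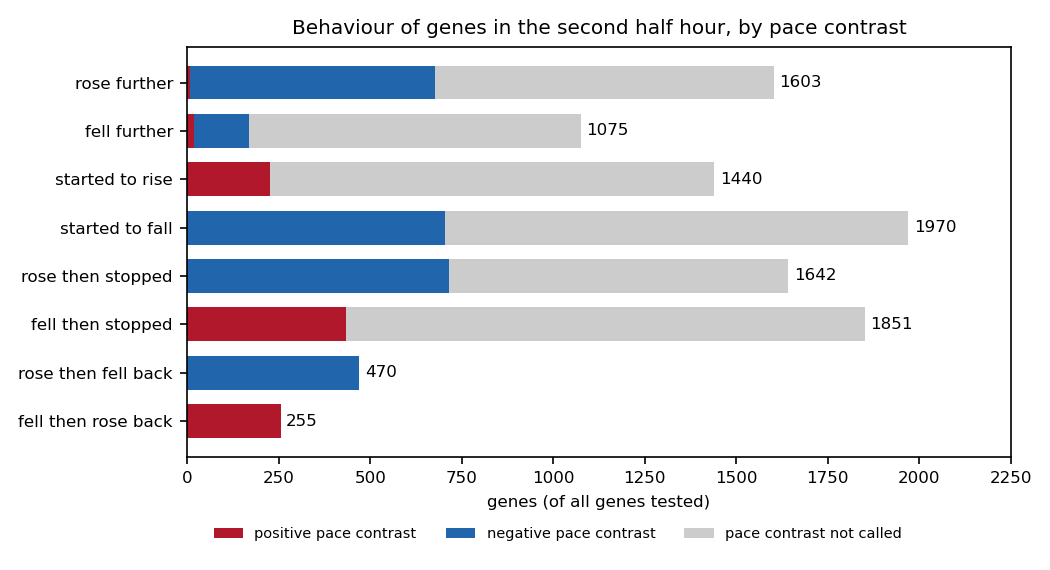
Number of genes in each behaviour group (horizontal bars, with the total at the end of each bar), split by whether the pace contrast was called positive, called negative or not called at an adjusted p of 0.05. Negative calls make up much of the genes that rose further (670 of 1603), while most genes that started to rise (1215 of 1440) have no pace call.

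Genes that went on rising held most of the gain. In the 1603 genes that rose further the median log2 change was 1.33 at 30 versus 0 minutes and 0.79 at 60 versus 30 minutes. Their median level was 12.6 CPM at 0 minutes, 43.4 CPM at 30 minutes and 74.9 CPM at 60 minutes. On the pace contrast 670 of them were negative, a slowing on the log2 scale, and 6 were positive. Leaving out replicate 1 or 2 at 30 minutes gave a group of 981 or 982 genes, with 426 or 423 slowing. Positive calls numbered 85 without replicate 1 at 60 minutes, 33 without replicate 2 at 60 minutes, and 0 or 1 without any other library.

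The steepest further risers among genes reaching at least 10 CPM were nearly silent at 0 minutes. Pp3c12_11870 had 0.096 and 0.271 CPM at 0 minutes, 9.24 and 11.6 CPM at 30 minutes and 85.1 and 106 CPM at 60 minutes. The libraries of the 3 times do not overlap. Its log2 fold change at 60 versus 30 minutes was 3.20 (SE 0.17, adjusted p = 1.57e-06). Pp3c14_10490 had no read at 0 minutes, 2.63 and 2.53 CPM at 30 minutes and 25.6 and 20.1 CPM at 60 minutes. Against a floor of 3 counts per library at 0 minutes it was at least 16.9-fold higher at 30 minutes and at least 149.6-fold higher at 60 minutes. The fitted log2 fold change at 60 versus 30 minutes was 3.14 (SE 0.20, adjusted p = 5.29e-06). Pp3c3_14410, also without a read at 0 minutes, had 0.985 and 2.15 CPM at 30 minutes and 12.5 and 13.9 CPM at 60 minutes, a log2 fold change of 3.14 (SE 0.28, adjusted p = 2.74e-05). Its 30 minute libraries held 18 and 28 reads and differed more than 2-fold, while both lay far below the 60 minute libraries.

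The 2 largest gains in CPM were made by genes that had already risen many-fold. Pp3c3_29530 had 71.9 and 89.4 CPM at 0 minutes, 2223 and 2127 CPM at 30 minutes and 5698 and 8122 CPM at 60 minutes. It took 0.499% and 0.644% of all gene counts at 60 minutes, against 0.231% and 0.222% at 30 minutes. Its log2 fold change at 60 versus 30 minutes was 1.67 (SE 0.20, adjusted p = 8.78e-05), after 4.75 (SE 0.23) at 30 versus 0 minutes. Pp3c8_16760 had 6.12 and 4.76 CPM at 0 minutes, 1704 and 1629 CPM at 30 minutes and 4340 and 4812 CPM at 60 minutes. Between 30 and 60 minutes the log2 fold change was 1.46 (SE 0.15, adjusted p = 4.59e-05). The pace contrast was -3.09 (SE 0.32) for Pp3c3_29530 and -6.79 (SE 0.27) for Pp3c8_16760, with adjusted p of 3.29e-05 and 1.23e-08. So on the log2 scale both slowed, although each gained more CPM after 30 minutes than before. Pp3c12_11870 and Pp3c14_10490 were also called slowing, at -2.60 and -5.27, but their adjusted p was 0.0538 and 0.0531 without replicate 1 at 0 minutes. The 20 called genes with the largest gain in CPM took 6.09% and 6.84% of gene counts at 60 minutes, against 3.54% and 3.51% at 30 minutes. At 0 minutes they had taken 1.16% and 1.30%. They made up 18.7% of the summed CPM gain of all genes that rose. Of the 20, 18 had risen further and 2 had started to rise.

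In the 1075 genes that fell further the median log2 change was -0.81 at 30 versus 0 minutes and -1.10 at 60 versus 30 minutes. Their median level was 17.3 CPM at 0 minutes, 9.07 CPM at 30 minutes and 4.14 CPM at 60 minutes. On the log2 scale, 149 of these genes fell faster (a negative pace call), 19 fell slower (a positive call) and 907 had no call. A faster fall on this scale can be a smaller loss in CPM. Without replicate 1 or 2 at 0 minutes the group held 632 or 656 genes with 40 or 41 faster falls, while leaving out a 30 minute library gave 489 (replicate 1) or 513 (replicate 2) genes with 15 or 27. Without replicate 1 at 60 minutes there were 315 faster falls, and without replicate 2 there were 254. The slower falls numbered 3 to 30 over the 6 left-out libraries, 8 against 70 faster falls with DESeq2, and with upper-quartile factors or total counts alone they numbered 45 or 41 against 210 or 261 faster falls.

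Pp3c11_800 had 12.2 and 12.5 CPM at 0 minutes, 6.07 and 4.53 CPM at 30 minutes and 0.284 and 0.287 CPM at 60 minutes. The 60 minute values rest on 4 reads in each library, so the level was 19.0-fold lower than at 30 minutes with an exact 95% counting interval from 9.43 to 44.7. The fitted log2 fold change was -4.20 (SE 0.33, adjusted p = 8.27e-06). Pp3c16_6980 had 46.8 and 55.5 CPM at 0 minutes, 9.85 and 9.99 CPM at 30 minutes and 0.497 and 0.934 CPM at 60 minutes, a log2 fold change of -3.78 (SE 0.26, adjusted p = 4.86e-06) after -2.37 (SE 0.16). Pp3c17_11650 kept most of its level at first, with 27.0 and 28.2 CPM at 0 minutes, 21.2 and 20.4 CPM at 30 minutes and 1.49 and 1.94 CPM at 60 minutes. On the log2 scale it changed by -0.41 (SE 0.13) at 30 versus 0 minutes and -3.60 (SE 0.18) at 60 versus 30 minutes. In CPM, Pp3c11_800 and Pp3c16_6980 lost more before 30 minutes than after, and Pp3c17_11650 lost more after. All 3 genes had a pace call, at -2.998 for Pp3c11_800, -1.41 for Pp3c16_6980 and -3.19 for Pp3c17_11650, with adjusted p of 0.000791, 0.0223 and 4.04e-06. For Pp3c16_6980 the adjusted p of the pace contrast was 0.0639 without replicate 1 at 0 minutes, 0.111 or 0.101 without replicate 1 or 2 at 30 minutes and 0.0679 without replicate 1 at 60 minutes.

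**Figure D2:**
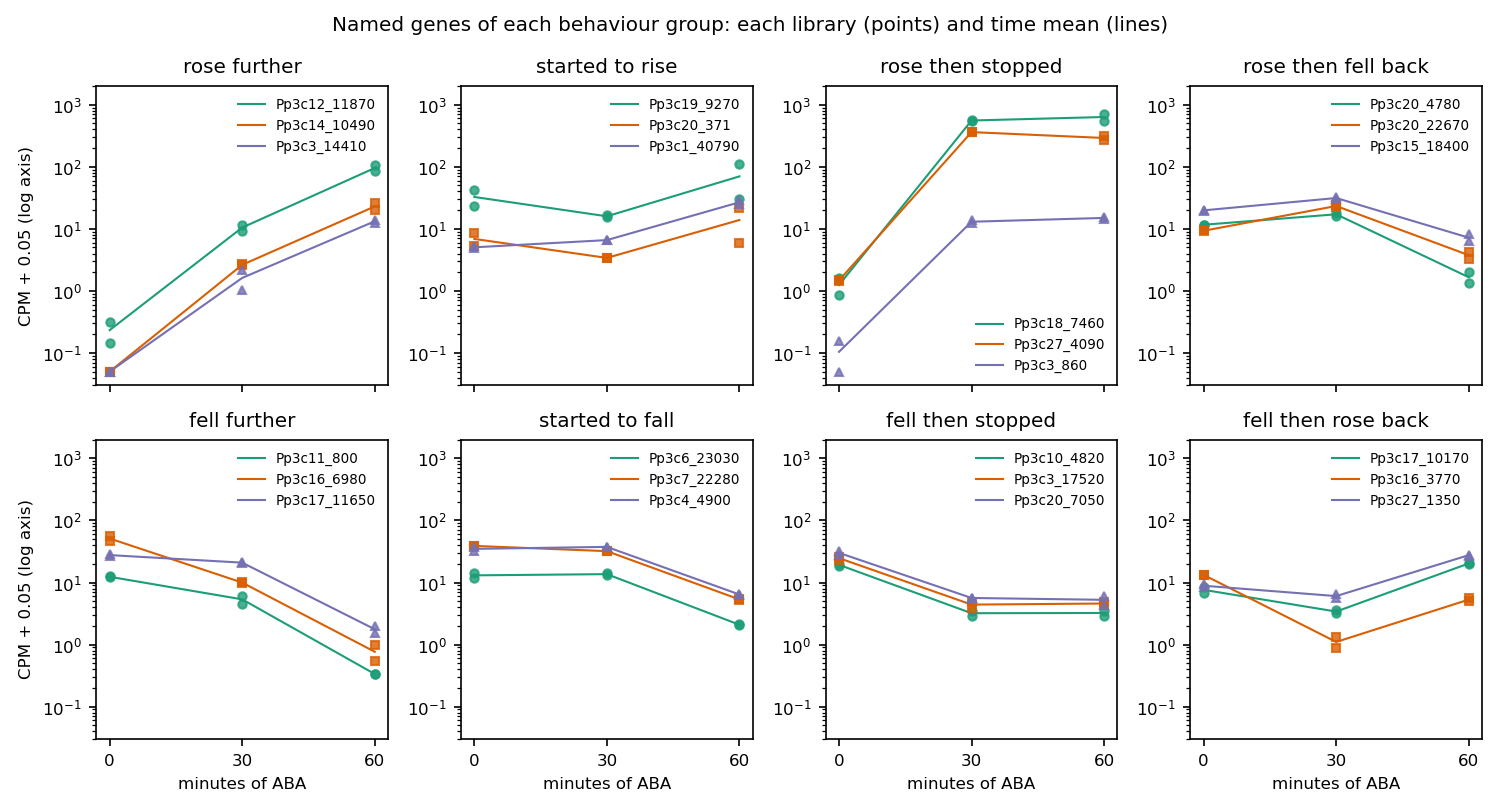
CPM plus 0.05 on a log axis at 0, 30 and 60 minutes for the 3 named genes of each behaviour group, with 1 point per library and a line through the time means. In the panel of genes that started to rise, the 60 minute libraries of Pp3c19_9270 (109 and 30.4 CPM) and Pp3c20_371 (21.7 and 5.96 CPM) stand far apart, while those of Pp3c1_40790 (24.6 and 28.8 CPM) lie close together.

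More genes started to fall than started to rise. After no call at 30 minutes, 1970 genes fell and 1440 rose. At 60 versus 30 minutes the median log2 change was -0.82 in the falling and 0.54 in the rising genes. Of the falling genes 699 changed at least 2-fold, and of the rising genes 179. A pace call was made for 703 of the falling and 225 of the rising genes, so for 1267 and 1215 genes a late start was not shown. At 60 versus 0 minutes 244 of the falling and 302 of the rising genes had no call. Without replicate 1 at 30 minutes 1293 genes started to fall, and without replicate 1 or 2 at 30 minutes 565 or 676 started to rise. The pace contrast then held for 220 or 313 of the falling and 40 or 34 of the rising genes, for 122 or 93 rising genes without replicate 1 or 2 at 0 minutes, and for 674 or 369 without replicate 1 or 2 at 60 minutes. With total counts alone 4026 started to fall and 291 to rise, and with upper-quartile factors 1890 and 868.

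The named genes that started to fall had no call at 30 versus 0 minutes and then dropped. Pp3c6_23030 had 11.9 and 14.1 CPM at 0 minutes, 14.1 and 13.1 CPM at 30 minutes and 2.06 and 2.01 CPM at 60 minutes. On the log2 scale it changed by 0.07 (SE 0.14) at 30 versus 0 minutes and -2.74 (SE 0.19, adjusted p = 5.17e-06) at 60 versus 30 minutes. Pp3c7_22280 had 39.0 and 38.7 CPM at 0 minutes, 31.9 and 32.0 CPM at 30 minutes and 5.18 and 5.39 CPM at 60 minutes, a log2 fold change of -2.59 (SE 0.14, adjusted p = 1.57e-06) after 30 minutes. Both of its 30 minute libraries already lay below both at 0 minutes, with a change of -0.28 (SE 0.11, adjusted p = 0.0724). Pp3c4_4900 had 37.5 and 32.1 CPM at 0 minutes, 37.6 and 37.3 CPM at 30 minutes and 6.53 and 6.18 CPM at 60 minutes, a log2 fold change of -2.56 (SE 0.14, adjusted p = 2.18e-06) after 0.11 (SE 0.12). In each of these 3 genes both 60 minute libraries lay below the other 4 libraries.

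Of the named genes that started to rise, Pp3c1_40790 did so in both replicates. It had 4.83 and 5.14 CPM at 0 minutes, 6.45 and 6.61 CPM at 30 minutes and 24.6 and 28.8 CPM at 60 minutes. Its log2 fold change at 60 versus 30 minutes was 2.03 (SE 0.15, adjusted p = 6.07e-06), and the pace contrast was 1.64 (SE 0.28, adjusted p = 0.00152). The other named genes rose mainly in replicate 1. Pp3c19_9270 had 23.4 and 41.7 CPM at 0 minutes, 16.4 and 15.4 CPM at 30 minutes and 109 and 30.4 CPM at 60 minutes. Pp3c20_371 had 5.26 and 8.39 CPM at 0 minutes, 3.391 and 3.303 CPM at 30 minutes and 21.7 and 5.96 CPM at 60 minutes, and in both genes replicate 2 at 60 minutes lay within the range of the 0 minute libraries. At 60 versus 0 minutes the adjusted p was 0.0473 for Pp3c19_9270, and Pp3c20_371 had no call (adjusted p = 0.062). Neither gene is shown to have been flat before 30 minutes. At 30 versus 0 minutes the fitted log2 change was -1.03 (SE 0.46, adjusted p = 0.106) for Pp3c19_9270. For Pp3c20_371 it was -1.02 (SE 0.505, adjusted p = 0.14). The fitted change at 60 versus 30 minutes was 2.14 (SE 0.46, adjusted p = 0.00458) for Pp3c19_9270 and 2.04 (SE 0.49, adjusted p = 0.00763) for Pp3c20_371, on the log2 scale. Without replicate 1 at 60 minutes these values were 0.94 and 0.83, from a fit with 1 library at that time. Both genes lost the pace call with DESeq2 (adjusted p = 0.0909 and 0.104), without replicate 2 at 0 minutes (0.0898 and 0.123), and without replicate 1 (0.104 and 0.16) or replicate 2 (0.11 and 0.135) at 30 minutes. Pp3c20_371 also lost it with total counts alone (0.0709) and without replicate 1 at 0 minutes (0.0548).

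These genes belong to a set that was found after its values were seen. Of the 4836 called genes with at least 10 CPM at 30 or 60 minutes, 39 differed more than 2-fold between the 60 minute replicates, and 35 of these were higher in replicate 1. More than 3-fold apart were 12 genes, all higher in replicate 1 and all among those that started to rise. In all 12 genes both 30 minute libraries lay below both 0 minute libraries. For them the group name means only that no fall was called by 30 minutes. Their replicate 1 was 3.13 to 5.21 times replicate 2 at 60 minutes, and at 0 minutes their replicate 2 was 1.55 to 1.99 times replicate 1. Without replicate 1 at 60 minutes their log2 fold changes lay between 0.45 and 0.96. That fit rests on 1 library at 60 minutes and cannot show the spread between replicates there. Of the 12 IDs, 9 begin with Pp3c20_ and 2 with Pp3s. The other is Pp3c19_9270. Whether these IDs are near-identical copies that share reads was not tested.

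**Figure D3:**
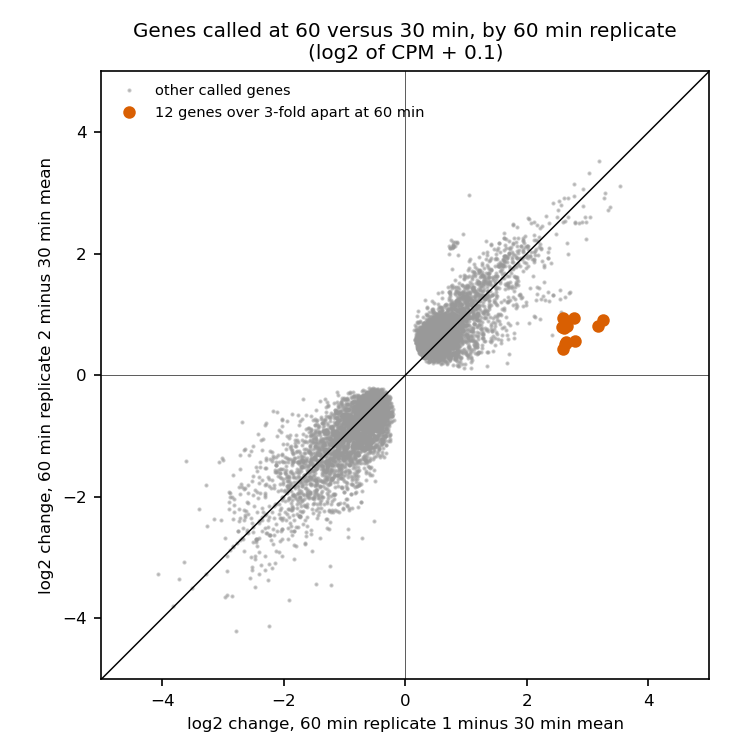
Log2 change from the 30 minute mean to replicate 1 (horizontal axis) and to replicate 2 (vertical axis) at 60 minutes for the 6813 genes called at 60 versus 30 minutes, from CPM plus 0.1, with the diagonal of equal change. The 12 genes more than 3-fold apart lie together to the right of the diagonal, with replicate 1 at 20.4 to 109 CPM and replicate 2 at 4.31 to 30.4 CPM at 60 minutes.

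Replicate 2 at 60 minutes was otherwise the library slightly further from 30 minutes. Among genes that rose it lay further from the 30 minute mean than replicate 1 in 63.7% of cases, with a median log2 change of 0.69 in replicate 2 and 0.62 in replicate 1. Among genes that fell the share was 56.6%, with medians of -0.92 in replicate 2 and -0.82 in replicate 1.

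Genes that had risen and then stopped were shown to hold their level more often than genes that had fallen and stopped. Of 1642 genes that rose by 30 minutes and had no later call, 1103 had a 95% interval of the later change within 1.5-fold of no change. Of 1851 genes that fell and had no later call, 684 had such an interval. These are 67.2% and 37.0%, against 51.6% of the genes with no call in either interval and 33.5% of all tested genes, which include those called after 30 minutes. With upper-quartile factors 660 of 1001 and 2093 of 4215 genes had such an interval. The difference between the groups was not tested. Pace calls were made for 714 genes that rose then stopped and for 432 that fell then stopped. The medians of the later log2 fold change were 0.07 and -0.04. The first group had a median of 24.1 CPM at 30 minutes and the second 6.28 CPM, and lower counts widen the interval. Whether level accounts for the difference between the groups was not tested. Leaving out replicate 1 or 2 at 30 minutes left 374 or 447 of the genes that rose, and 113 or 122 of those that fell, with such an interval. Without replicate 1 or 2 at 0 minutes these numbers were 700 or 626 and 327 or 229, and without replicate 2 at 60 minutes they were 1706 and 1058. The group that fell then stopped held 1093 or 970 genes without replicate 1 or 2 at 0 minutes, 1233 or 997 without replicate 1 or 2 at 30 minutes, and 4215 with upper-quartile factors.

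The named genes that rose then stopped made a single large step. Pp3c18_7460 had 1.58 and 0.812 CPM at 0 minutes, 563 and 549 CPM at 30 minutes and 546 and 720 CPM at 60 minutes. Its 60 minute libraries lay on either side of those at 30 minutes, and the later log2 fold change was 0.19 with a 95% interval from -0.17 to 0.55. Without replicate 1 at 60 minutes this was 0.38 with an adjusted p of 0.0186. Pp3c27_4090 had 1.43 and 1.41 CPM at 0 minutes, 357 and 366 CPM at 30 minutes and 269 and 312 CPM at 60 minutes, a later log2 fold change of -0.31 with an interval from -0.57 to -0.06. Its adjusted p was 0.0524, just outside the threshold, and it was called lower under upper-quartile factors, total counts alone, the stricter filter, a replicate block and without replicate 2 at 60 minutes, at log2 fold changes of -0.32 to -0.64. Pp3c3_860 had 0 and 0.108 CPM at 0 minutes, 12.3 and 13.6 CPM at 30 minutes and 14.5 and 15.4 CPM at 60 minutes, a later log2 fold change of 0.21 with an interval from -0.17 to 0.58.

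The named genes that fell then stopped lost most of their reads by 30 minutes. Pp3c10_4820 had 18.3 and 20.1 CPM at 0 minutes, 2.84 and 3.46 CPM at 30 minutes and 3.48 and 2.87 CPM at 60 minutes. Pp3c3_17520 had 23.4 and 25.9 CPM at 0 minutes, 4.87 and 3.84 CPM at 30 minutes and 4.33 and 4.74 CPM at 60 minutes. Pp3c20_7050 had 32.6 and 27.4 CPM at 0 minutes, 5.63 and 5.53 CPM at 30 minutes and 6.11 and 4.31 CPM at 60 minutes. In all 3 genes the 60 and 30 minute libraries overlap. The intervals of their later log2 fold changes ran from -0.45 to 0.51, from -0.38 to 0.47 and from -0.55 to 0.35.

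Reversals were fewer, and their medians at 60 minutes lay near those at 0 minutes. The 470 genes that rose then fell back had a median of 11.6 CPM at 0 minutes, 28.0 CPM at 30 minutes and 15.8 CPM at 60 minutes. At 60 versus 0 minutes 174 of them were still higher, 62 were lower and 234 had no call. The 255 genes that fell then rose back had a median of 19.8 CPM at 0 minutes, 9.28 CPM at 30 minutes and 17.8 CPM at 60 minutes, and 19 ended higher, 63 lower and 173 with no call. The pace contrast was called for every gene of both groups, which follows from their opposite calls and is no separate support. The groups held 295 and 165 genes without replicate 1 at 0 minutes, 264 and 128 without replicate 2 at 0 minutes, 184 and 92 without replicate 1 at 30 minutes and 224 and 97 without replicate 2 at 30 minutes. Leaving out a 60 minute library gave 440 (replicate 1) or 603 (replicate 2) genes that fell then rose back.

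The steepest genes that rose then fell back overshot their starting level. Pp3c20_4780 had 11.7 and 11.5 CPM at 0 minutes, 18.0 and 16.2 CPM at 30 minutes and 1.28 and 1.94 CPM at 60 minutes. Its log2 fold change was 0.57 (SE 0.15, adjusted p = 0.012) at 30 versus 0 minutes, -3.41 (SE 0.20, adjusted p = 2.63e-06) at 60 versus 30 minutes and -2.84 (SE 0.21, adjusted p = 3.95e-07) at 60 versus 0 minutes. Pp3c20_22670 had 9.37 and 9.15 CPM at 0 minutes, 22.5 and 24.0 CPM at 30 minutes and 4.19 and 3.23 CPM at 60 minutes, a log2 fold change of -2.64 (SE 0.17, adjusted p = 3.06e-06) after 1.33 (SE 0.14). Pp3c15_18400 had 19.6 and 19.9 CPM at 0 minutes, 30.6 and 32.0 CPM at 30 minutes and 6.25 and 8.05 CPM at 60 minutes, a log2 fold change of -2.13 (SE 0.15, adjusted p = 5.76e-06) after 0.66 (SE 0.14). In each of the 3 genes the libraries of the 3 times do not overlap.

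The 2 largest losses in CPM after 30 minutes also belonged to genes that rose then fell back. Pp3c8_8150 had 35.6 and 34.2 CPM at 0 minutes, 529 and 519 CPM at 30 minutes and 206 and 278 CPM at 60 minutes. It changed by -1.12 on the log2 scale (SE 0.14, adjusted p = 0.000159) at 60 versus 30 minutes, and it remained 2.79 (SE 0.15) above 0 minutes. Pp3c5_14790 had 44.1 and 41.7 CPM at 0 minutes, 673 and 709.9 CPM at 30 minutes and 393 and 512 CPM at 60 minutes, a log2 fold change of -0.61 (SE 0.14, adjusted p = 0.00615). Without replicate 2 at 30 minutes its adjusted p was 0.0598. Of the 20 called genes with the largest loss, 11 had risen then fallen back and 8 had fallen further. Together the 20 took 0.306% and 0.311% of gene counts at 60 minutes, against 0.733% and 0.739% at 30 minutes.

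The steepest genes that fell then rose back ended on both sides of the starting level. Pp3c17_10170 had 8.31 and 6.82 CPM at 0 minutes, 3.17 and 3.53 CPM at 30 minutes and 20.8 and 19.6 CPM at 60 minutes. Its log2 fold change was 2.60 (SE 0.17, adjusted p = 3.91e-06) at 60 versus 30 minutes and 1.41 (SE 0.15, adjusted p = 9.47e-06) at 60 versus 0 minutes. Pp3c27_1350 had 9.37 and 8.28 CPM at 0 minutes, 5.52 and 6.45 CPM at 30 minutes and 28.1 and 26.9 CPM at 60 minutes, a log2 fold change of 2.21 (SE 0.15, adjusted p = 4.83e-06). It also ended above 0 minutes, by 1.64 (SE 0.14). Pp3c16_3770 regained only part of its level, with 13.4 and 13.0 CPM at 0 minutes, 1.26 and 0.845 CPM at 30 minutes and 4.90 and 5.61 CPM at 60 minutes. On the log2 scale this was 2.27 (SE 0.25, adjusted p = 5.36e-05) at 60 versus 30 minutes and -1.33 (SE 0.17, adjusted p = 4.51e-05) at 60 versus 0 minutes.

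Few genes with 0 counts at 30 or 60 minutes could be tested. Of 711 IDs counted at 60 but in neither 30 minute library 3 passed, and of 923 counted at 30 but in neither 60 minute library 17 passed, the filter on low counts. No gene with 0 counts in both 30 minute libraries was called higher at 60 minutes by edgeR's quasi-likelihood test. Of the 3 tested, 0 passed an unadjusted p of 0.05 and 0 were called by DESeq2. Of the 17 with no read at 60 minutes, 10 were called lower, from a median of 0.392 CPM at 30 minutes, and 13 passed an unadjusted p of 0.05. Over all tested genes 18.5% were called lower. Genes with no read at 60 minutes passed the filter only through reads at 0 or 30 minutes. Their falls are partly fixed by the filter, and nothing is read from their number. DESeq2 called 1 of the 17, Pp3c17_11090. It gave Pp3c22_20980 no adjusted p, and a gene without an adjusted p is counted as not called. The DESeq2 numbers here therefore do not separate genes that failed its test from genes it did not judge. Pp3c22_20980 had 9 and 11 reads at 0 minutes, 12 and 8 reads at 30 minutes and none at 60 minutes, at least 2.97-fold lower than at 30 minutes against a floor of 3 counts per library. Pp3c17_11090 had 70 and 45 reads at 0 minutes, 10 and 6 reads at 30 minutes and none at 60 minutes, at least 2.35-fold lower. At these depths a loss of all transcripts cannot be told from a level below the floor.

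The share of gene counts held by genes that rose further grew after 30 minutes. Genes called higher at 60 versus 30 minutes took 42.9% and 44.7% of gene counts at 60 minutes, against 30.2% and 30.4% at 30 minutes. Genes called lower took 4.54% and 4.11% at 60 minutes, against 9.21% and 9.02% at 30 minutes. By behaviour group, the genes that rose further took 30.8% ± 0.997 at 60 minutes and 19.1% ± 0.18 at 30 minutes (SD, n = 2 each). The genes that started to rise took 12.2% ± 0.32 and 10.6% ± 0.32, and the genes that rose then fell back 1.32% ± 0.03 and 2.67% ± 0.04, at 60 and 30 minutes (SD, n = 2 each). The genes that rose then stopped took 6.78% ± 0.20 at 60 minutes and 8.01% ± 0.09 at 30 minutes (SD, n = 2 each). Genes with no call in either interval took 35.6% ± 0.24 at 60 minutes and 41.0% ± 0.11 at 30 minutes (SD, n = 2 each). A share of counts falls when other genes rise, so neither of the last 2 differences is a sign of a fall in those genes. In the genes that rose then stopped the median later log2 change was 0.07. The groups were chosen on these libraries, and an exact test of 2 against 2 libraries cannot reach a p of 0.05, so none is given. The gain of the called risers was 13.5 percentage points and lay between 11.7 and 13.2 with any 1 library left out of the calls.

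**Figure D4:**
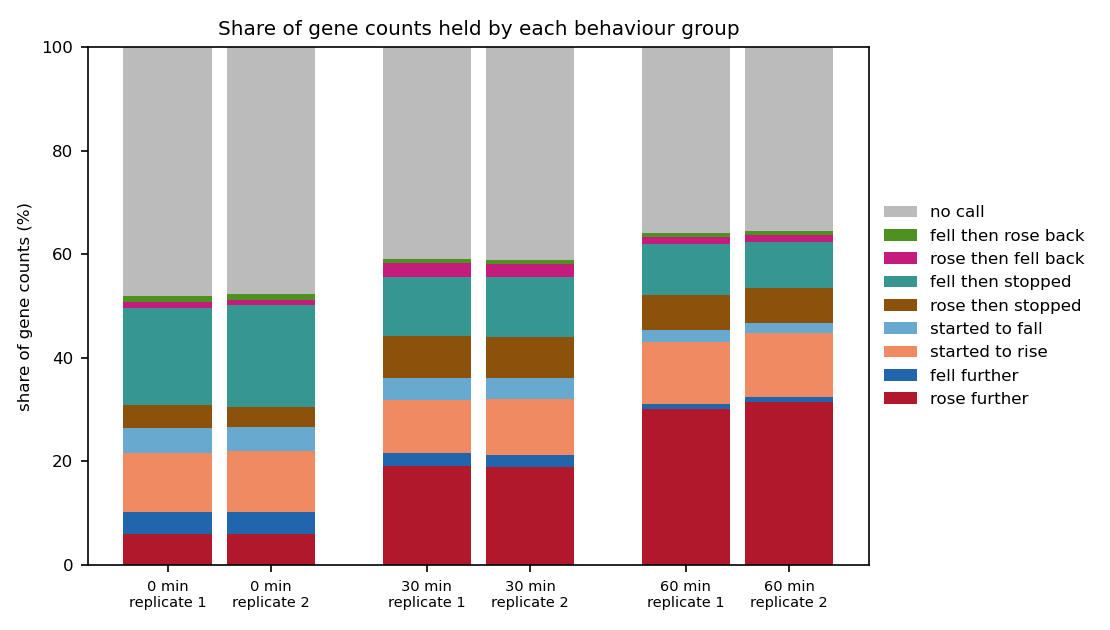
Share of gene counts (percent, stacked to 100) held by each behaviour group in each of the 6 libraries, in order of time. The block of genes that rose further widens to 30.8% at 60 minutes, against 19.1% at 30 minutes, and the block with no call narrows to 35.6%, against 41.0%.

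Calls after 30 minutes also differed with the level a gene had at 0 minutes, which comes from libraries outside the comparison of 60 with 30 minutes. Tested genes were split into 5 equal groups by that level. In the highest group, above about 37.4 CPM at 0 minutes, 25.3% rose and 14.7% fell between 30 and 60 minutes. In the second lowest, from about 3.98 to 10.0 CPM, 12.9% rose and 23.4% fell. Among calls of 2-fold or more the highest group held 58 risen and 166 fallen genes, and the second lowest 144 and 428. Over all tested genes these numbers were 818 and 1433. The excess of rises in the highest group therefore lay in changes under 2-fold. In the lowest group, up to about 4.05 CPM, 16.8% rose and 12.7% fell. Genes near 0 CPM at 0 minutes passed the filter on low counts only through reads at 30 or 60 minutes, so the rises of this group are partly fixed by the filter and nothing is read from them. Over all genes of a group the median log2 change was 0.15 in the highest and -0.12 in the second lowest. With upper-quartile factors slightly more genes fell than rose in the highest group (17.9% against 16.4%) and in the lowest (15.9% against 15.1%), and with total counts alone more fell than rose in every group. The order of the medians between the highest and the second lowest group held, at 0.05 and -0.22 with upper-quartile factors and at -0.18 and -0.44 with total counts.

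**Figure D5:**
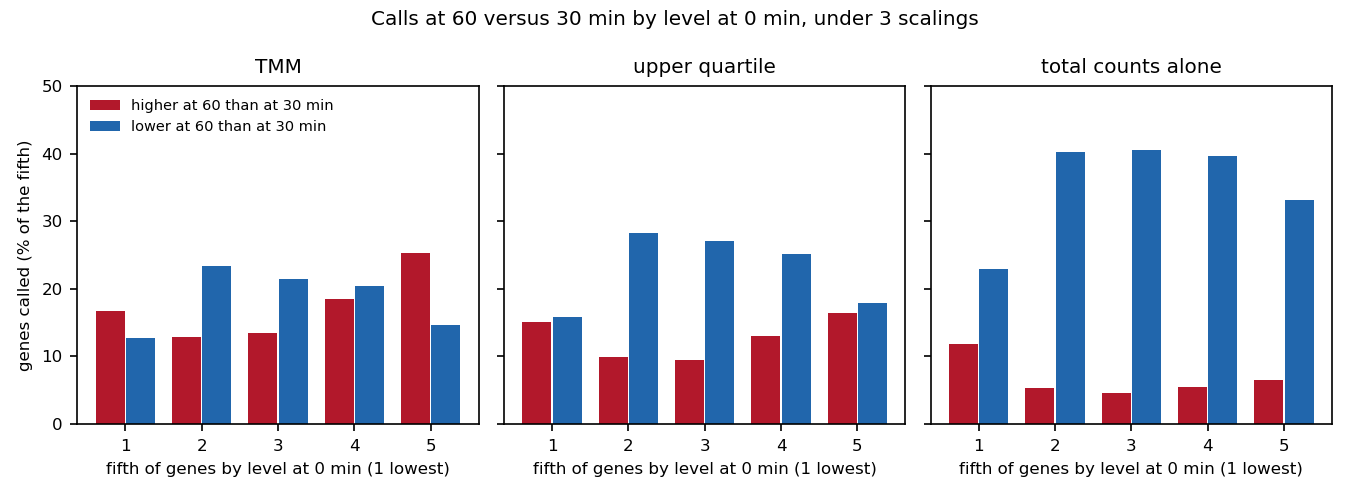
Percent of genes called higher (red) and lower (blue) at 60 than at 30 minutes in 5 equal groups of genes ordered by level at 0 minutes, for TMM, upper-quartile scaling and unscaled library totals. With TMM risen genes outnumber fallen genes in the highest group (25.3% against 14.7%) and in the lowest, whose members near 0 CPM were kept only through later reads. With upper-quartile scaling neither group holds more risen than fallen genes, and with total counts alone fallen genes outnumber risen genes in all 5. Calls of any size are counted. At 2-fold or more, 58 genes rose and 166 fell in the highest group with TMM.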

How the data were processed

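Total RNA of 6 protonema samples was extracted with Trizol and made into stranded mRNA libraries, per the labels' protocols. The authors deposited a table of raw read counts per gene for each library. Per the submitters' processing notes the tools were cutadapt, TopHat, HTSeq and DESeq2, with no version. Build, annotation and strand setting: not given in the sources used here. The 5 rows that name no gene were left out. Among them, the row of reads in no annotated gene made up 1.66% to 2.14% per library of gene counts plus that row.

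Groups and replicate numbers come from the sample titles. The labels call the replicates biological but name no separate cultures, so p-values measure the spread between these samples. That spread is 1 estimate per gene shared by the 3 groups. The median coefficient of variation was 9.91% at 60 minutes, 4.73% at 30 minutes and 5.53% at 0 minutes. A shared estimate can thus be too small for 60 versus 30 minutes and too large for 30 versus 0 minutes. This bears on which genes are placed as starting or stopping. Genes were kept by filterByExpr (minimum count 10, minimum total 15), scaled by TMM and tested with edgeR 4.0.16 (R 4.3.3) in a quasi-likelihood model of 3 groups over all 6 libraries (3 residual degrees of freedom), with contrasts for 60 versus 30, 30 versus 0 and 60 versus 0 minutes and the pace contrast. Calls needed a Benjamini-Hochberg adjusted p below 0.05. The standard error is the log2 fold change divided by the square root of F, and intervals use the moderated degrees of freedom. Genes at 0 counts were set against 3 counts per library. Counting intervals and floors cover counting error only. DESeq2 1.42.0 was an alternative test. The scripts were tested on simulated data.

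The comparison, groups and rules were chosen with earlier results of these data known. Named genes are, per behaviour group, the 3 with the largest change at 60 versus 30 minutes (30 versus 0 for genes that stopped) among those with at least 10 CPM at a time and libraries that do not overlap. Genes that started also needed a pace call, and genes that stopped an interval within 1.5-fold. The 2 largest CPM gains and losses and the 2 highest genes with 0 counts at a time were added. The planned gene lists and marker lists were not run, since no ID matched a description.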

Additional observations from a re-analysis of the deposited data

Results flagged for a closer look

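The change after 30 minutes differed from the change before it for 3644 genes by the pace contrast, a test of the difference itself in edgeR's quasi-likelihood model. The contrast is the log2 change at 60 versus 30 minutes minus that at 30 versus 0 minutes, and the 30 minute libraries enter both changes. Most named genes met this rule, and several were chosen by criteria that favour it. Among genes that rose further it was -2.60 for Pp3c12_11870, -5.27 for Pp3c14_10490, -3.09 for Pp3c3_29530 and -6.79 for Pp3c8_16760. The values of Pp3c12_11870 and Pp3c14_10490 lost their call without replicate 1 at 0 minutes, and that of Pp3c14_10490 rests on 0 counts at 0 minutes and is no bound. Among genes that fell further it was -2.998 for Pp3c11_800, -1.41 for Pp3c16_6980 and -3.19 for Pp3c17_11650. Genes that started to rise had 3.17 (Pp3c19_9270), 3.06 (Pp3c20_371) and 1.64 (Pp3c1_40790), and for Pp3c19_9270 and Pp3c20_371 the replicates lie 3.60-fold and 3.63-fold apart at 60 minutes. Genes that started to fall had -2.81 (Pp3c6_23030), -2.31 (Pp3c7_22280), -2.66 (Pp3c4_4900) and -6.74 (Pp3c22_20980), the last against 0 counts at 60 minutes and without a call when replicate 1 at 30 minutes was left out (adjusted p = 0.095). Genes that rose then stopped had -8.64 (Pp3c18_7460), -8.30 (Pp3c27_4090) and -7.58 (Pp3c3_860). Genes that fell then stopped had 2.65 (Pp3c10_4820), 2.52 (Pp3c3_17520) and 2.32 (Pp3c20_7050). Genes that rose then fell back had -3.98 (Pp3c20_4780), -3.97 (Pp3c20_22670), -2.79 (Pp3c15_18400), -5.02 (Pp3c8_8150) and -4.62 (Pp3c5_14790). Genes that fell then rose back had 3.78 (Pp3c17_10170), 5.88 (Pp3c16_3770) and 2.78 (Pp3c27_1350).

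Reads in no annotated gene enter no comparison above. As a percent of gene counts plus these reads, they took 2.14% and 1.73% at 60 minutes and 1.99% and 2.04% at 30 minutes. All lay above the 1.67% and 1.66% at 0 minutes. Ambiguous, low-quality, unaligned and multiply aligned reads are not in these totals. The 60 minute libraries lie on either side of the 30 minute libraries. The widest Wilson 95% interval, for replicate 2 at 30 minutes, ran from 2.03% to 2.04% and covers counting error only.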

How the results depend on the processing

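Of the 408 refits of a named gene's log2 fold change at 60 versus 30 minutes, 401 kept its side of the threshold, and none reversed a called direction. Of 379 refits of a named gene's pace contrast 357 kept theirs, 17 lost the call and 5 gained it. With total counts alone 1280 genes rose and 6691 fell after 30 minutes, 894 rose further, 2028 fell further, 291 started to rise, 4026 started to fall and 95 fell then rose back. The gain of counts by called risers was then 11.7 percentage points, and that of the called fallers -9.52. With upper-quartile factors 2063 fell further, 868 started to rise, 1001 rose then stopped, 4215 fell then stopped, 390 fell then rose back, and the fallers' difference was -5.61 points. With a minimum of 1 on the log2 scale added to each call, 818 genes rose and 1433 fell, 492 rose further, 260 fell further, 258 started to rise, 1103 started to fall, 774 fell then stopped, 70 rose then fell back and 68 fell then rose back, with differences of 8.80 and -1.63 points. The DESeq2 test gave 707 that fell further, 275 that rose then fell back and -4.06 points for the fallers, DESeq2's size factors in edgeR gave -4.44 points, and the stricter filter gave 12.04 points for the risers. Without a filter 400 genes fell then rose back. The share of the genes that rose then stopped changed by -1.23 points at 60 minus 30 minutes, and the sign of this difference reversed under 2 settings. It was 0.175 points with total counts alone and 0.882 points with the log2 minimum. Fits to the 4 libraries compared called 2488 genes higher and 3220 lower. For none of these was the cause tested.

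With each library left out in turn the lowest and highest values were 1638 and 4212 genes that rose, 1966 and 4004 that fell, 981 and 2134 that rose further, 489 and 1542 that fell further, 565 and 1638 that started to rise, 1293 and 2104 that started to fall, 1105 and 2389 that rose then stopped, 970 and 2548 that fell then stopped, 184 and 647 that rose then fell back, 92 and 603 that fell then rose back, and 1616 and 5502 with a pace call. The differences in share ranged from 11.7 to 13.2 points for the risers and from -5.23 to -3.17 for the fallers. Leaving out a 30 or 60 minute library leaves a lone library, which is assumed to vary like the other groups.

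The replicate block gave 3744 genes that rose and 3755 that fell, 1796 that rose further, 373 that fell then rose back and 4290 with a pace call, none over 1.5 times from the values without it. The labels do not tie the numbers to a shared culture or day, and deviations of same-numbered libraries correlated with r of 0.19 between 60 and 30 minutes, 0.01 between 60 and 0 and -0.05 between 30 and 0 minutes across genes, so no pairing was used. Depth limits the lowest genes most: a floor of 3 counts per library was worth 0.214 CPM (60 minutes) or 0.197 CPM (30 minutes).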

Other observations

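Of the 12 genes with replicates more than 3-fold apart at 60 minutes, 9 have ID numbers from Pp3c20_40 to Pp3c20_411. The files hold 26 IDs from Pp3c20_40 to Pp3c20_411, of 1116 that begin with Pp3c20_. Of the 18 that were tested, 17 were called higher at 60 than at 30 minutes and 14 were more than 2-fold higher in replicate 1 than in replicate 2 at 60 minutes. This range of numbers was taken from the 9 genes of the set described above, all of them called higher. Both counts include them, so nothing is read from their size. For comparison, 17.4% of all tested genes were called higher. Over all tested genes 762 differed more than 2-fold between the 60 minute replicates, 522 of them higher in replicate 1, and 231 differed more than 2-fold between the 30 minute replicates. The set took 20.4 to 109 CPM in replicate 1 and 4.31 to 30.4 CPM in replicate 2 at 60 minutes, 2.84 to 16.4 CPM at 30 minutes and 3.39 to 41.7 CPM at 0 minutes.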
